A study of Homo sapiens with 18 samples.

Results

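The response of SP100 knockout keratinocytes to 12 h of interferon alpha 2a was examined in 6 of the series' 18 RNA-seq libraries: 3 of the knockout line kept for 12 h in 25 ng/mL of the human protein, and 3 of the same line left untreated (0 h). They were chosen by genotype, treatment and time alone. The cells are NIKS, an established line of human keratinocytes that is immortal and that can form a stratified epithelium. Every group, treated or not, was grown in the same medium, with hydrocortisone, epidermal growth factor, insulin and cholera toxin, on a layer of irradiated J2/3T3 mouse fibroblasts, and poly-A RNA was sequenced with a stranded kit. Where the wild type is used below, it is the series' SP100 wild-type line at the same times (3 libraries each), and 3 knockout libraries at 48 h of interferon are used for what followed. The table's column names give 1 line per genotype, so the genotype cannot be told apart from any other difference between the lines, and the labels do not say which bases of SP100 were altered. All untreated libraries of the series are labelled 0 h, and none 12 or 48 h. Interferon and more hours in culture therefore cannot be told apart, at 12 h or at 48 h. The labels call the 3 libraries of a group biological replicates without saying whether they were separate cultures. The p-values therefore measure the spread between libraries of the same group, estimated over the groups of all 18 libraries.

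Type I interferons bind the receptor chains IFNAR1 and IFNAR2. The kinases JAK1 and TYK2 then activate STAT proteins, STAT2 among them, which join IRF9 to form the complex ISGF3. ISGF3 enters the nucleus and binds interferon-stimulated response elements in the promoters of interferon-stimulated genes, whose products block viral entry, sense or degrade viral RNA, and present antigen. SP100 is a constituent of PML nuclear bodies, is itself an interferon-stimulated gene, and restricts DNA viruses in keratinocytes and other cells.

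Values are RPKM (read density over a gene's length, relative to the library's reads), given as the mean ± SD of 3 libraries unless each library is listed. Changes are differences of log2(RPKM + 1) between the 12 h and the untreated knockout libraries, a scale that understates the change of low genes, and a gene was called at an adjusted p under 0.05 in limma. Total reads are unknown, and relative depth spanned 1.33-fold over the 6 libraries. Pearson correlations between replicates across genes were 0.985 to 0.989. Of 8 keratinocyte markers, all were tested, and their summed level was 14900 to 16100 RPKM untreated and 13700 to 15600 RPKM at 12 h. KRT5 and KRT14 accounted for most of this sum, so it says little of the other markers. Of those, COL17A1, ITGA6 and LAMB3 rose and KRT15 fell, as given below. Of 8 fibroblast markers, 2 were listed (COL1A1 and PDGFRB, summing to 1.48 to 1.83 RPKM untreated and 2.32 to 3.18 RPKM at 12 h), and of 7 melanocyte markers, 2 (1.00 to 1.86 and 0.98 to 1.28 RPKM). Of 9 leukocyte markers, 3 were listed, among them CD68, a lysosomal protein of macrophages and other cells, which accounted for most of a sum of 19.7 to 21.2 RPKM untreated and 45.2 to 51.8 RPKM at 12 h. CD14, another of them, went the other way, from 4.33, 4.65 and 6.64 RPKM to 1.65, 1.39 and 1.25 RPKM. The part of these markers in the results was not tested.

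At 12 h, 2123 of 13280 genes tested were higher (16.0%) and 4362 were lower (32.8%). On the log2(RPKM + 1) scale the rises were fewer but reached further. There, 233 genes rose at least 2-fold (1.75%) and 154 fell at least 2-fold (1.16%). At least 4-fold, 100 rose (0.753%) against 7 that fell as far, and 36 against 0 passed 16-fold. A 2-fold change here is 1 on this scale, not a 2-fold ratio of RPKM. The order at 2-fold depended on the scale: with 0.1 instead of 1 added to RPKM, 313 genes rose and 476 fell as far. The median change over all genes was -0.095. With median-of-ratios scaling, which set that median at -0.0013, 3153 genes were higher (23.7%) and 3040 lower (22.9%), so the share of calls that were rises went from 32.7% to 50.9%. Counts of list members are therefore given under both scalings where they differ, and are to be read beside these shares over all genes. In bulk RNA, fewer cells of a type and less RNA per cell cannot be told apart. Genes of the lists below, which hold 1015 tested genes, made up 99 of the 233 larger rises and 4 of the 154 larger falls. The lists were chosen with earlier results of these data known, so these counts are only a description. Counts by list cover tested genes only, and testing took at least 1 RPKM in at least 3 of the 18 libraries. A gene near 0 in every untreated library could pass this filter only through treated libraries. Its rise is then partly a condition of its being counted.

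**Figure D1:**
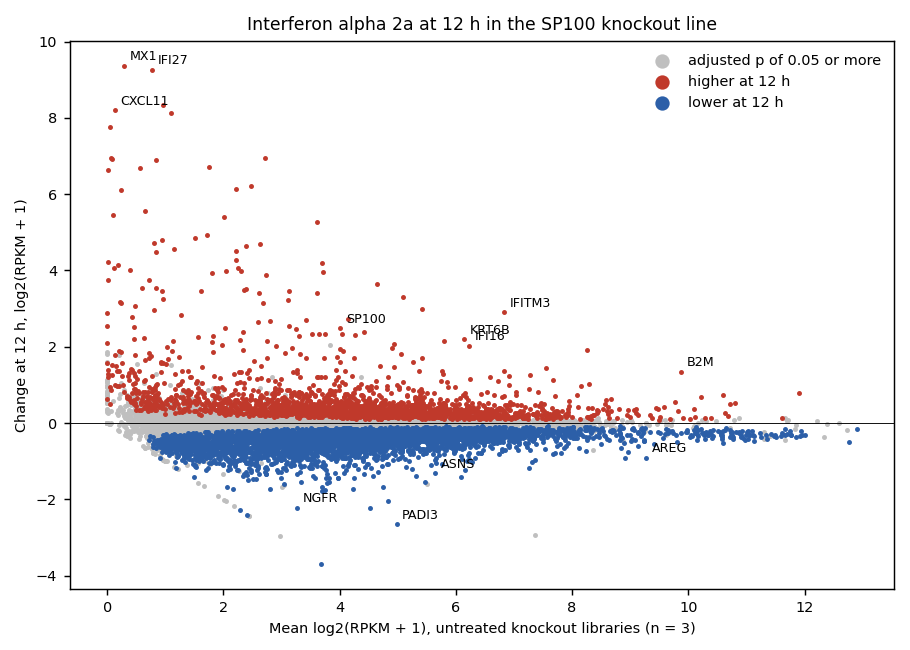
Change at 12 h of interferon in the knockout line (vertical axis, log2(RPKM + 1) scale) against the mean level in the 3 untreated libraries (horizontal axis), 1 point per gene tested. Rises, in red, reach 9.37 for MX1, while most of the 4362 falls, in blue, lie within 1 of the zero line.

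Promoter windows were searched for the letters that ISGF3 is known to bind, and genes that rose far held them more often than the tested genes at large. The core of the response element, GAAANNGAAA (TTTCNNTTTC on the other strand), was searched on both strands in the 250 bases before each RefSeq start. It lay in a window of 322 of the 9653 tested genes that had one (3.34%), in 48 of 156 genes that rose at least 2-fold (30.8%), in 36 of 71 that rose at least 4-fold (50.7%) and in 2 of 105 that fell at least 2-fold (1.90%). Over all 35116 windows of the table the share was 3.02%. A match is a description of these letters and not of binding, and 102 of 121 genes compared had their window's end inside a transcript of the gene. The sequences from RefSeq on GRCh38.p14 give the stretch from 20 bases before the first match to the start site for 4 of the largest rises, read 5′ to 3′ on the gene's strand, with matches in capitals.
MX1, chr21:41431834-41432049, plus strand: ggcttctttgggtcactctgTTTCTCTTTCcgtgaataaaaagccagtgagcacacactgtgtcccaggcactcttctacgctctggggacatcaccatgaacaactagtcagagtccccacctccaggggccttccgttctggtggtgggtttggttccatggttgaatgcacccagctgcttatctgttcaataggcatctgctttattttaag
IFI27, chr14:94110608-94110735, plus strand: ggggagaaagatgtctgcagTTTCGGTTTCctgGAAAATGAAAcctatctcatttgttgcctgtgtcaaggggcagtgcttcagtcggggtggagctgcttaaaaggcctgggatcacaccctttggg
IFIT1, chr10:89392487-89392622, plus strand: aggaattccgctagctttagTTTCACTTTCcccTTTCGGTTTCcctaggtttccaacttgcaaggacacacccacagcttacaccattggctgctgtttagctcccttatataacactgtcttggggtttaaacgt
IFI6, chr1:27672193-27672368, minus strand: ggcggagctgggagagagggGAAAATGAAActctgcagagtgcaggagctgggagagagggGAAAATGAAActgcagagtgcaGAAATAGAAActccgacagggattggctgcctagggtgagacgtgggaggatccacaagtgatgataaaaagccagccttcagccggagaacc
IFI6 held 3 matches, at 156, 115 and 93 bases before the start, 2 of them identical. IFIT1 held 2 that start 13 bases apart, at 116 and 103 bases before the start, and IFI27 held 2 on opposite strands, at 108 and 95 bases. MX1 held 1, at 196 bases, in 1 of its RefSeq windows.

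SP100, the targeted gene (ENSG00000067066), was at 16.0, 14.2 and 15.2 RPKM in the untreated libraries and 93.2, 86.5 and 87.5 RPKM in the 12 h libraries in the knockout line (log2 change 2.48, SE 0.06, adjusted p = 4.24e-15). Every 12 h library was above every untreated one, so transcripts counted to SP100 were present in the knockout and rose. The wild-type line was at 30.0 ± 2.01 untreated and 159 ± 11.2 RPKM at 12 h, above every knockout library of the same time, and the 12 h change did not pass the test of a difference between the lines, at 0.11 (SE 0.08, adjusted p = 0.945). Because the altered bases are not given, RPKM over the gene does not check the knockout at the protein level. Its neighbours SP110 and SP140L, chromatin readers of the same family, rose too, SP110 from 7.76 ± 0.741 to 96.1 ± 3.29 RPKM (log2 change 3.47, SE 0.07, adjusted p = 2.33e-16) and SP140L from 5.27 ± 0.819 to 16.6 ± 0.625 RPKM (log2 change 1.50, SE 0.11, adjusted p = 2.21e-08).

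Within the signalling pathway, the ISGF3 genes STAT2 and IRF9 rose and those of the receptor did not. STAT2 was at 10.9, 10.3 and 10.3 RPKM in the untreated libraries and 58.2, 59.7 and 54.6 RPKM in the 12 h libraries (log2 change 2.35, SE 0.07, adjusted p = 8.05e-14). IRF9 was at 4.81, 4.38 and 2.84 RPKM in the untreated libraries and 82.2, 79.8 and 69.8 RPKM in the 12 h libraries (log2 change 3.98, SE 0.11, adjusted p = 4.68e-14). For both genes the groups stood far apart, and IRF9 varied more among the untreated libraries. JAK1 rose less, from 22.6 ± 1.29 to 30.4 ± 1.76 RPKM (log2 change 0.41), and TYK2 was at 26.8 ± 1.22 and 28.4 ± 1.75 RPKM (adjusted p = 0.408). The receptor chain IFNAR2 fell from 11.8 ± 1.82 to 7.26 ± 0.0757 RPKM (log2 change -0.63, SE 0.09, adjusted p = 3.12e-05). IFNAR1 also passed the test, at 30.2 ± 2.36 and 26.0 ± 2.18 RPKM (adjusted p = 0.0341), but lost the call with median-of-ratios scaling, with the 6 libraries fitted alone, and without any 1 of 4 libraries: untreated replicate 1 or 3, or 12 h replicate 2 or 3. In all, 4 of the 7 genes of this list rose and 2 fell (4 and 1 with median-of-ratios scaling), with a median of 0.41.

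Of 9 negative regulators tested, USP18 rose and 3 fell (2 and 1 with median-of-ratios scaling). Over all genes tested, 16.0% rose and 32.8% fell (23.7% and 22.9%). USP18, the protease that strips ISG15 from proteins and binds IFNAR2 to dampen signalling, was at 2.03, 1.82 and 1.75 RPKM in the untreated libraries and 80.6, 78.8 and 84.1 RPKM in the 12 h libraries (log2 change 4.84, SE 0.05, adjusted p = 2.51e-20). PTPN6, the phosphatase SHP-1, fell from 17.4 ± 1.06 to 12.0 ± 1.17 RPKM (log2 change -0.50, adjusted p = 3.17e-05). Among 6 interferon regulatory factors, 3 rose. IRF7, which drives further interferon production, went from 0.943 ± 0.319 to 52.2 ± 3.01 RPKM (log2 change 4.79, SE 0.11, adjusted p = 4.24e-15), and IRF1 from 8.19 ± 0.757 to 22.4 ± 0.741 RPKM (log2 change 1.35). IRF5 was the 1 that fell (from 3.48 ± 0.467 to 2.46 ± 0.0737 RPKM, log2 change -0.37), a call lost without untreated replicate 3 (-0.28).

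RNA sensors rose in 6 of 7 cases, with a median change of 3.17. RIGI, which senses RNA with a 5′ triphosphate, was at 3.07, 3.23 and 2.75 RPKM in the untreated libraries and 177, 165 and 169 RPKM in the 12 h libraries (log2 change 5.41, SE 0.06, adjusted p = 4.24e-20). IFIH1, the MDA5 sensor of long double-stranded RNA, was at 3.12, 3.05 and 3.24 RPKM in the untreated libraries and 67.0, 62.2 and 66.2 RPKM in the 12 h libraries (log2 change 4.00, SE 0.06, adjusted p = 7.41e-18). These sensors were low but present in every untreated library. DHX58 (LGP2) went from 0.173 ± 0.0802 to 9.58 ± 1.55 RPKM, DDX60 from 5.24 ± 1.22 to 159 ± 4.21 RPKM, TLR3 from 1.18 ± 0.169 to 7.11 ± 0.295 RPKM and EIF2AK2, the kinase PKR that halts translation on double-stranded RNA, from 20.5 ± 0.256 to 111 ± 6.74 RPKM. MAVS, the adaptor through which RIGI and IFIH1 signal, was the member not called: it was at 13.3 ± 0.468 untreated and 13.3 ± 0.352 RPKM at 12 h (log2 change 0.00, adjusted p = 0.995).

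Of 6 DNA sensing genes, 5 rose (6 with median-of-ratios scaling). IFI16, a nuclear DNA sensor that was already abundant, was at 72.4, 75.8 and 74.1 RPKM in the untreated libraries and 309.6, 297 and 309 RPKM in the 12 h libraries (log2 change 2.03, SE 0.04, adjusted p = 8.1e-17). SAMHD1, which depletes nucleotides needed for viral DNA synthesis, rose from 3.74 ± 0.339 to 78.9 ± 2.23 RPKM (log2 change 4.08, SE 0.06, adjusted p = 2.27e-18), and STING1, the adaptor of cytosolic DNA sensing, from 28.2 ± 2.23 to 33.9 ± 2.13 RPKM (log2 change 0.26). CGAS, the enzyme that makes the messenger STING1 binds, was at 6.05 ± 0.582 and 7.01 ± 0.486 RPKM and missed the threshold (adjusted p = 0.0621). It passed with median-of-ratios scaling (0.28) and without untreated replicate 1 (0.25).

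Antiviral effectors made up the strongest group: 28 of 29 rose, 27 of them at least 2-fold, with a median change of 4.66. MX1, a dynamin-like GTPase that blocks RNA viruses, was at 0.22, 0.28 and 0.17 RPKM in the untreated libraries and 812, 804 and 808 RPKM in the 12 h libraries, the largest change of the named genes (log2 change 9.37, SE 0.05, adjusted p = 3.46e-24). Its relative MX2, which acts on lentiviruses and herpesviruses, was at 0, 0.12 and 0 RPKM in the untreated libraries and 226, 224 and 223 RPKM in the 12 h libraries (log2 change 7.76, SE 0.05, adjusted p = 3.55e-23). The untreated libraries were all below 0.3 RPKM for both genes, and the 12 h libraries differed from each other by a few RPKM. IFI27, a small hydrophobic membrane protein, was at 0.35, 1.15 and 0.71 RPKM in the untreated libraries and 1002, 1056 and 1078 RPKM in the 12 h libraries (log2 change 9.26, SE 0.18, adjusted p = 3.19e-16). IFI6, of the same family, was at 1.23, 1.00 and 1.23 RPKM in the untreated libraries and 597, 598 and 594 RPKM in the 12 h libraries (log2 change 8.12, SE 0.07, adjusted p = 8.54e-21). In both genes every treated library was far above every untreated one. IFI44L and IFI44, close homologues, went from 0.0567 ± 0.0603 to 128 ± 6.95 RPKM and from 0.81 ± 0.35 to 213 ± 14.9 RPKM.

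IFIT1, which binds viral RNA that lacks the host's cap methylation, was at 0.81, 0.83 and 1.22 RPKM in the untreated libraries and 635, 629 and 621 RPKM in the 12 h libraries (log2 change 8.34, SE 0.08, adjusted p = 1.89e-20). Its partner IFIT3 was at 2.39, 2.38 and 2.33 RPKM in the untreated libraries and 361, 349 and 354 RPKM in the 12 h libraries (log2 change 6.72, SE 0.06, adjusted p = 1.27e-20). Both were expressed before treatment, and every 12 h library was far higher. IFIT2 went from 1.21 ± 0.125 to 51.4 ± 2.06 RPKM. BST2 (tetherin), which holds budding virions at the cell surface, was at 0.76, 0.44 and 0.26 RPKM in the untreated libraries and 140.5, 152 and 156 RPKM in the 12 h libraries (log2 change 6.67, SE 0.11, adjusted p = 2.15e-17). Among the 2-5A synthases, which are switched on by double-stranded RNA, OAS1 went from 3.81 ± 1.58 to 327 ± 9.09 RPKM, OAS2 from 11.2 ± 0.989 to 474 ± 11.6 RPKM, OAS3 from 11.9 ± 0.247 to 234 ± 4.85 RPKM and the inactive relative OASL from 0.573 ± 0.0611 to 72.5 ± 0.866 RPKM. RSAD2 (viperin) and its neighbour CMPK2, which act together to make a chain-terminating nucleotide, were at or near 0 untreated and reached 98.2 ± 3.33 and 18.0 ± 2.32 RPKM. The membrane restriction factor IFITM1 went from 4.58 ± 0.359 to 411 ± 15.8 RPKM and IFITM3 from 112 ± 3.12 to 850.0 ± 47.1 RPKM. Reads that match more than 1 gene of the IFIT, IFITM or OAS families may have been split between genes by the authors' counting. The values of single members are uncertain to that extent.

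**Figure D2:**
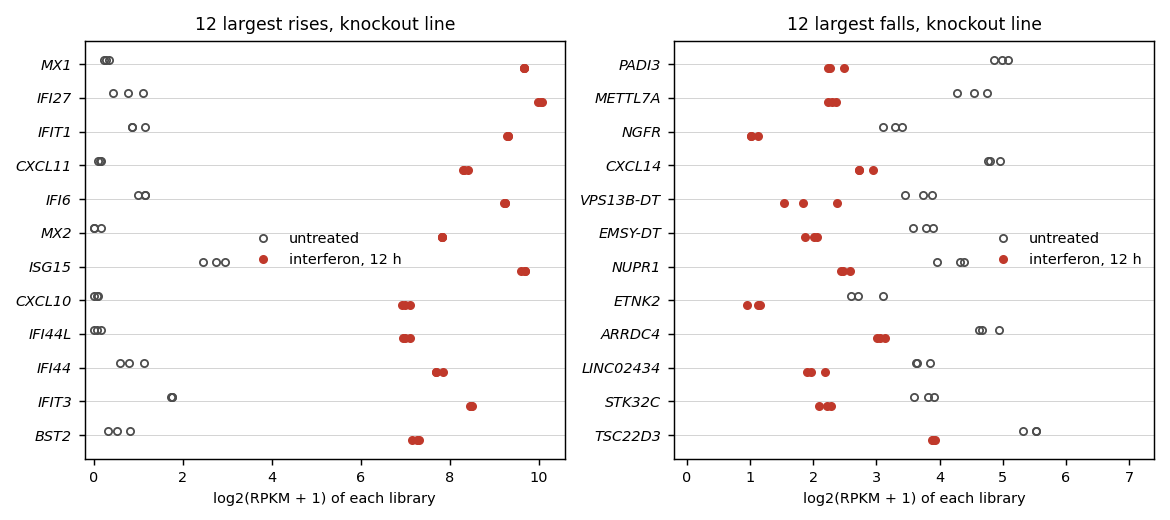
Level of each library (horizontal axes, log2(RPKM + 1)) for the 12 largest rises (left) and the 12 largest falls (right), with open circles for the 3 untreated and filled circles for the 3 interferon libraries of the knockout line. The genes were chosen to have groups that do not overlap, and the changes are 6.67 to 9.37 on the left and -2.65 to -1.56 on the right.

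ISG15, a ubiquitin-like protein that is joined to newly made proteins, was at 4.46, 5.68 and 6.77 RPKM in the untreated libraries and 776, 821 and 826 RPKM in the 12 h libraries (log2 change 6.94, SE 0.12, adjusted p = 4.18e-17). All 6 genes of its conjugation system rose by at least 2-fold, the activating enzyme UBA7 from 1.19 ± 0.127 to 8.76 ± 1.3 RPKM, the conjugating enzyme UBE2L6 from 12.1 ± 1.19 to 204 ± 4.19 RPKM, and the ligases HERC5 from 0.517 ± 0.101 to 16.7 ± 1.71 RPKM and TRIM25 from 37.5 ± 2.40 to 116 ± 1.79 RPKM. ISG15 was the most abundant of these per length at 12 h.
Smaller families moved the same way. Of 6 genes for PARP enzymes and DTX3L, 5 rose, among them PARP9 (from 5.66 ± 0.35 to 97.8 ± 4.56 RPKM) and PARP14 (from 7.70 ± 0.574 to 81.1 ± 3.23 RPKM). All 3 guanylate-binding protein genes tested, of 5 listed, rose, as with GBP1, a GTPase that coats intracellular pathogens (from 2.07 ± 0.0902 to 32.9 ± 1.07 RPKM). All 4 APOL genes tested, of 5 listed, rose too, as with APOL1 (from 0.67 ± 0.271 to 21.1 ± 1.82 RPKM). So did all 8 TRIM ligases, as with TRIM22 (from 41.6 ± 2.76 to 339 ± 8.33 RPKM). Of 4 APOBEC3 cytidine deaminases tested, 3 rose and 1 fell.

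All 18 genes of class I antigen presentation rose, 13 of them at least 2-fold, with a median of 1.35. HLA-B was at 11.4, 11.6 and 10.8 RPKM in the untreated libraries and 121, 137 and 129.6 RPKM in the 12 h libraries (log2 change 3.41, SE 0.07, adjusted p = 2.96e-16). Every treated library was far above every untreated one. HLA-C rose from 29.8 ± 1.37 to 129 ± 7.00 RPKM, HLA-E from 56.7 ± 2.52 to 121 ± 0.409 RPKM and HLA-F from 1.48 ± 0.809 to 16.2 ± 0.884 RPKM. Reads can be shared between these alleles and genes. B2M, the light chain of class I molecules and already among the more abundant transcripts, was at 990.3, 954 and 879 RPKM in the untreated libraries and 2414, 2282 and 2469 RPKM in the 12 h libraries (log2 change 1.34, SE 0.04, adjusted p = 3.32e-13). NLRC5, which activates transcription of class I genes, went from 0.92 ± 0.0265 to 20.4 ± 2.74 RPKM. TAP1 and TAP2, which pump peptides into the endoplasmic reticulum, went from 16.6 ± 0.515 to 116 ± 3.88 RPKM and from 28.9 ± 3.05 to 115 ± 6.19 RPKM.

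The 3 catalytic subunits of the immunoproteasome, which replace their constitutive counterparts after interferon, rose by different amounts. PSMB9 was at 3.95, 3.88 and 4.99 RPKM in the untreated libraries and 56.8, 58.7 and 62.7 RPKM in the 12 h libraries (log2 change 3.52, SE 0.08, adjusted p = 4.24e-15). PSMB8 was at 16.9, 14.6 and 15.1 RPKM in the untreated libraries and 80.8, 82.1 and 84.4 RPKM in the 12 h libraries (log2 change 2.34, SE 0.08, adjusted p = 4.83e-13). PSMB10 was at 21.2, 25.5 and 29.2 RPKM in the untreated libraries and 38.1, 42.6 and 42.5 RPKM in the 12 h libraries (log2 change 0.69, SE 0.10, adjusted p = 3.56e-05). PSMB10 had the highest untreated level and the smallest rise. Of 13 constitutive proteasome genes, 7 rose and 2 fell (9 and 0 with median-of-ratios scaling), all by less than 2-fold. The structural subunits PSMA6 and PSMA3 went from 176 ± 6.53 to 254 ± 10.7 RPKM and from 139 ± 5.35 to 194 ± 6.12 RPKM. PSMB5, a catalytic subunit that PSMB8 displaces, was at 143 ± 2.92 and 151 ± 3.92 RPKM (adjusted p = 0.121; called with median-of-ratios scaling, 0.19). PSMB6, displaced by PSMB9, was at 155 ± 4.34 and 143 ± 3.41 RPKM, a fall (-0.11, adjusted p = 0.023) whose call was lost with median-of-ratios scaling.

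Of 22 chemokine and cytokine genes listed, 12 were tested, of which 8 rose and 3 fell (8 and 2 with median-of-ratios scaling). The others were absent or too low to be tested, so the share that rose does not describe the whole list. CXCL11, which draws T cells through CXCR3, was at 0.07, 0.12 and 0.11 RPKM in the untreated libraries and 339.8, 315 and 312 RPKM in the 12 h libraries (log2 change 8.20, SE 0.11, adjusted p = 2.27e-18). CXCL10, a ligand of the same receptor, was at 0, 0.08 and 0.05 RPKM in the untreated libraries and 136, 126 and 119.9 RPKM in the 12 h libraries (log2 change 6.94, SE 0.11, adjusted p = 2.94e-17). Neither passed 0.2 RPKM in any untreated library, and both passed 100 in each 12 h library. The neutrophil chemokines CXCL1 and CXCL8 rose from below 1 RPKM to 2.55 ± 0.214 and 2.48 ± 0.72 RPKM. IL1RN, the antagonist of the IL-1 receptor, rose from 8.68 ± 0.682 to 23.0 ± 1.54 RPKM (log2 change 1.31, SE 0.08, adjusted p = 4.29e-09). IL1B, whose product that antagonist opposes, was at 18.4, 17.8 and 20.3 RPKM in the untreated libraries and 9.83, 9.82 and 10.5 RPKM in the 12 h libraries (log2 change -0.84, SE 0.07, adjusted p = 6.18e-08). IL18 fell from 72.8 ± 1.01 to 40.2 ± 3.04 RPKM (log2 change -0.84, SE 0.06, adjusted p = 3.66e-08). The antagonist and the 2 IL-1 family cytokines thus moved in opposite directions, with no overlap between groups.

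Of 9 immune checkpoint genes tested, 6 rose (7 with median-of-ratios scaling). LGALS9 (galectin-9), a ligand of TIM-3, was at 0.25, 0.16 and 0.13 RPKM in the untreated libraries and 78.3, 86.5 and 76.7 RPKM in the 12 h libraries (log2 change 6.11, SE 0.09, adjusted p = 5.03e-18). CD274 (PD-L1) was at 1.58, 1.38 and 1.48 RPKM in the untreated libraries and 2.95, 2.55 and 2.94 RPKM in the 12 h libraries (log2 change 0.62, SE 0.18, adjusted p = 0.0113). LGALS9 was below 0.3 RPKM before treatment, whereas CD274 was present at a low level in every library. NT5E (CD73), which makes adenosine, rose from 53.6 ± 1.54 to 132 ± 5.85 RPKM (log2 change 1.29, SE 0.04, adjusted p = 3.53e-13).

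Cell death genes rose in 16 of 22 cases and fell in 2 (18 and 0 with median-of-ratios scaling). XAF1, which binds the caspase inhibitor XIAP, was at 0, 0.03 and 0.21 RPKM in the untreated libraries and 47.5, 48.8 and 41.8 RPKM in the 12 h libraries (log2 change 5.45, SE 0.09, adjusted p = 4.18e-17). TNFSF10, the death ligand TRAIL, was at 6.53, 5.23 and 4.58 RPKM in the untreated libraries and 57.0, 54.8 and 56.7 RPKM in the 12 h libraries (log2 change 3.16, SE 0.08, adjusted p = 2.08e-14). The former was nearly silent untreated and the latter was not. CASP1, the inflammasome caspase, rose from 29.7 ± 2.02 to 84.9 ± 3.54 RPKM (log2 change 1.48), and MLKL, the pore of necroptosis, from 11.2 ± 0.645 to 27.0 ± 1.18 RPKM (log2 change 1.20).

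Of 16 genes for PML nuclear bodies and the HIRA histone chaperone, which deposits histone H3.3, 3 rose and 5 fell (5 and 3 with median-of-ratios scaling). These counts are near the shares over all genes tested, 16.0% higher and 32.8% lower (23.7% and 22.9%). PML, the scaffold of the bodies, was at 24.4, 24.8 and 25.7 RPKM in the untreated libraries and 66.8, 79.2 and 72.7 RPKM in the 12 h libraries (log2 change 1.51, SE 0.06, adjusted p = 1.08e-11). HIRA was at 14.3, 16.2 and 13.9 RPKM in the untreated libraries and 20.9, 21.7 and 19.8 RPKM in the 12 h libraries (log2 change 0.46, SE 0.08, adjusted p = 0.000108). In both the groups did not overlap, and PML was the member that passed 2-fold. The H3.3 genes split: H3-3B rose from 534 ± 24.3 to 680.1 ± 27.4 RPKM (log2 change 0.35) and H3-3A fell from 175 ± 3.38 to 134 ± 5.73 RPKM (log2 change -0.38), although both encode the same protein. DAXX, another H3.3 chaperone, was at 29.3 ± 1.31 and 32.5 ± 2.96 RPKM (adjusted p = 0.192; called with median-of-ratios scaling, 0.25). UBN2, a partner of HIRA, was lower (from 3.00 ± 0.736 to 1.75 ± 0.25 RPKM, log2 change -0.53), a call lost without untreated replicate 1 (-0.40).

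**Figure D3:**
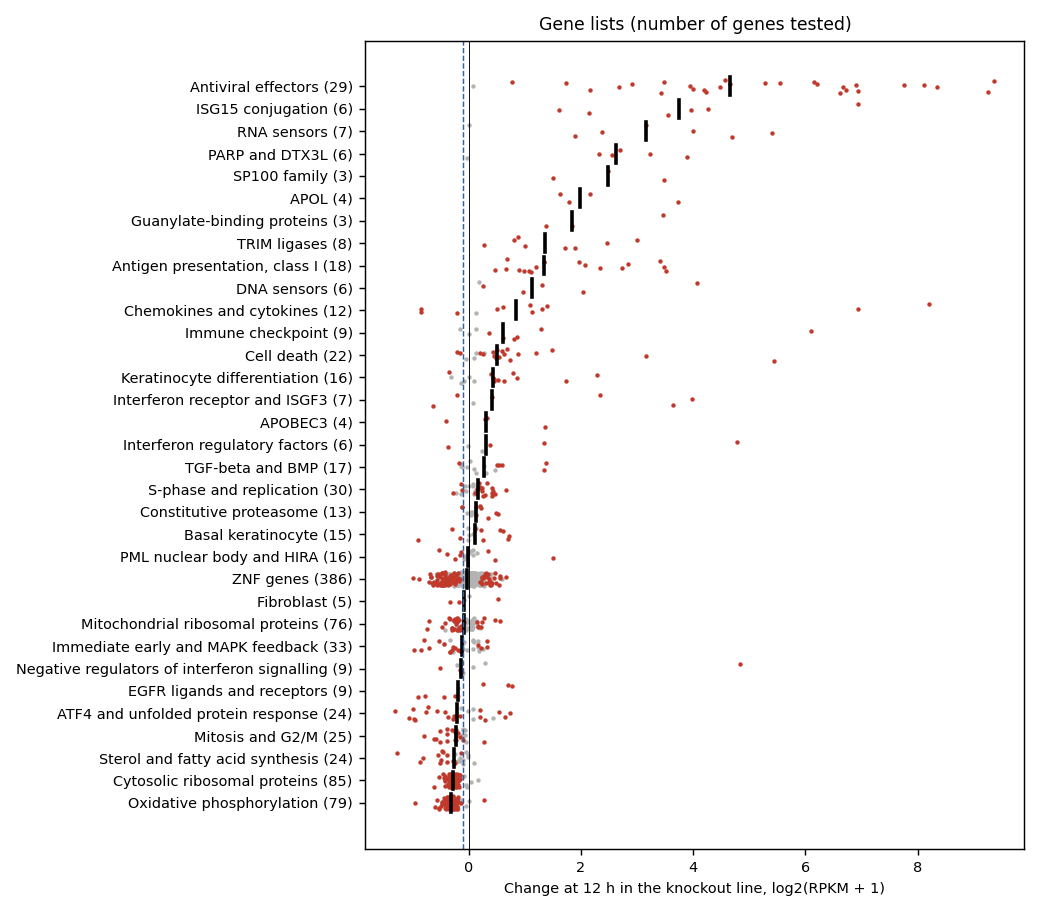
Change at 12 h in the knockout line (horizontal axis, log2(RPKM + 1) scale) of every tested gene of each list (rows, with the number tested), called genes in red, others in grey, black bars for list medians and a dashed line at the median of all genes, -0.095. The melanocyte and leukocyte lists, with 1 and 2 genes tested, are left out. The lists shown run from antiviral effectors (median 4.66) to oxidative phosphorylation (median -0.31).

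The largest rises outside every list included genes of metabolism and membranes. TYMP, thymidine phosphorylase, was at 2.22, 1.96 and 2.79 RPKM in the untreated libraries and 94.7, 101 and 102 RPKM in the 12 h libraries (log2 change 4.92, SE 0.10, adjusted p = 4.94e-16). LAMP3, a lysosomal membrane protein, was at 0.86, 0.59 and 0.79 RPKM in the untreated libraries and 45.6, 44.5 and 45.3 RPKM in the 12 h libraries (log2 change 4.73, SE 0.07, adjusted p = 9.51e-18). MMP13, a collagenase, was at 0.06, 0.05 and 0.13 RPKM in the untreated libraries and 18.8, 15.7 and 17.1 RPKM in the 12 h libraries (log2 change 4.07, SE 0.10, adjusted p = 4.39e-15). Each was below 3 RPKM in every untreated library and above 15 in every treated one. DDX60L, a relative of DDX60, went from 3.67 ± 0.559 to 105 ± 1.36 RPKM, HSH2D, an adaptor protein, from 0.143 ± 0.171 to 19.1 ± 1.41 RPKM, and GMPR, which turns GMP into IMP, from 0.8 ± 0.114 to 19.8 ± 0.875 RPKM. SLC15A3, a lysosomal peptide transporter, was at 0.01, 0 and 0.01 RPKM untreated and reached 12.7 ± 1.95 RPKM. PLSCR1, a phospholipid scramblase with antiviral activity, started highest of these and rose from 32.9 ± 1.58 to 333 ± 16.4 RPKM.

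None of the genes with the 12 largest falls was in any list. PADI3, a peptidylarginine deiminase of hair follicle and epidermis that acts on structural proteins, was at 32.9, 28.2 and 30.7 RPKM in the untreated libraries and 3.72, 4.60 and 3.79 RPKM in the 12 h libraries (log2 change -2.65, SE 0.08, adjusted p = 7.77e-14). METTL7A, a membrane-bound methyltransferase, was at 25.9, 22.3 and 18.3 RPKM in the untreated libraries and 3.72, 4.15 and 3.90 RPKM in the 12 h libraries (log2 change -2.22, SE 0.13, adjusted p = 1.15e-09). NGFR, the p75 neurotrophin receptor, was at 8.79, 7.59 and 9.65 RPKM in the untreated libraries and 1.03, 1.19 and 1.02 RPKM in the 12 h libraries (log2 change -2.21, SE 0.13, adjusted p = 1.17e-09). In each, the lowest untreated library was several times above the highest treated one. CXCL14, a chemokine that resting epithelia produce, was at 30.0, 26.7 and 26.3 RPKM in the untreated libraries and 5.59, 6.71 and 5.64 RPKM in the 12 h libraries (log2 change -2.04, SE 0.13, adjusted p = 2.93e-09). TSC22D3, the glucocorticoid-induced leucine zipper protein, was at 45.2, 39.0 and 45.1 RPKM in the untreated libraries and 13.8, 13.9 and 14.2 RPKM in the 12 h libraries (log2 change -1.56, SE 0.16, adjusted p = 9.69e-07). ARRDC4, an arrestin-like protein that limits glucose uptake, was at 29.8, 23.8 and 24.6 RPKM in the untreated libraries and 7.04, 7.33 and 7.81 RPKM in the 12 h libraries (log2 change -1.68, SE 0.11, adjusted p = 3.92e-09). These 3 were lower but still expressed at 12 h. NUPR1, a stress-induced chromatin protein, fell from 17.8 ± 2.90 to 4.65 ± 0.301 RPKM, ETNK2, an ethanolamine kinase, from 6.09 ± 1.36 to 1.12 ± 0.161 RPKM and STK32C, a kinase, from 12.7 ± 1.55 to 3.60 ± 0.287 RPKM. The other three are long non-coding RNAs: VPS13B-DT (from 12.0 ± 1.87 to 2.89 ± 1.18 RPKM), EMSY-DT (from 12.5 ± 1.47 to 2.97 ± 0.271 RPKM) and LINC02434 (from 12.0 ± 1.13 to 3.07 ± 0.418 RPKM). A pseudogene without a symbol was the 1 called gene that fell further than PADI3.

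Of 24 genes of the ATF4 programme and the unfolded protein response, 6 rose and 13 fell (7 and 11 with median-of-ratios scaling). ASNS, asparagine synthetase, was at 49.7, 48.6 and 49.0 RPKM in the untreated libraries and 18.9, 19.4 and 19.5 RPKM in the 12 h libraries (log2 change -1.31, SE 0.06, adjusted p = 3.12e-11). PSAT1, of serine synthesis, was at 72.0, 71.2 and 72.6 RPKM in the untreated libraries and 37.8, 34.6 and 34.9 RPKM in the 12 h libraries (log2 change -0.99, SE 0.05, adjusted p = 4.99e-11). PHGDH, the first enzyme of that pathway, was at 67.3, 66.3 and 71.1 RPKM in the untreated libraries and 33.2, 34.9 and 36.2 RPKM in the 12 h libraries (log2 change -0.95, SE 0.05, adjusted p = 2.01e-10). For these 3, replicates lay close together and the groups did not overlap. SLC7A11, the cystine transporter, fell from 6.98 ± 0.365 to 3.07 ± 0.0208 RPKM and CHAC1, which degrades glutathione, from 3.66 ± 1.09 to 1.20 ± 0.108 RPKM. Among those that rose were 2 chaperones of the endoplasmic reticulum: HSPA5 (BiP) was at 259.9, 273 and 276 RPKM in the untreated libraries and 462, 430.4 and 456 RPKM in the 12 h libraries (log2 change 0.73, SE 0.05, adjusted p = 2.8e-09), and CALR, which folds class I molecules, rose from 407 ± 7.58 to 636 ± 13.9 RPKM (log2 change 0.64).

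Of 24 genes of sterol and fatty acid synthesis, 0 rose and 14 fell (0 and 11 with median-of-ratios scaling), with a median of -0.26 against -0.095 over all genes. FDFT1, squalene synthase, was at 108, 103 and 108 RPKM in the untreated libraries and 56.8, 63.9 and 59.2 RPKM in the 12 h libraries (log2 change -0.82, SE 0.06, adjusted p = 2.21e-08). Its groups did not overlap. INSIG1, which holds back the sterol-responsive factor SREBP, fell from 8.22 ± 1.38 to 4.02 ± 0.482 RPKM (log2 change -0.87, SE 0.10, adjusted p = 4.22e-06).

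Cell cycle genes differed by list, with small changes. Of 30 S-phase and replication genes, 18 rose and 3 fell (21 and 1 with median-of-ratios scaling; median 0.16). ORC1, of the origin recognition complex, was at 12.4, 12.8 and 12.4 RPKM in the untreated libraries and 20.2, 20.2 and 20.9 RPKM in the 12 h libraries (log2 change 0.66, SE 0.04, adjusted p = 2.61e-09). CDC6, which loads the replicative helicase, went from 30.3 ± 3.19 to 40.5 ± 3.70 RPKM and E2F1 from 4.85 ± 0.52 to 6.84 ± 0.408 RPKM, and RFC4, of the clamp loader, fell from 46.9 ± 1.01 to 38.6 ± 0.822 RPKM. Of 25 genes of mitosis and G2/M, 1 rose and 17 fell (1 and 13 with median-of-ratios scaling; median -0.23). CDC25C, the phosphatase that starts mitosis, was at 9.82, 9.72 and 10.4 RPKM in the untreated libraries and 5.02, 6.02 and 5.06 RPKM in the 12 h libraries (log2 change -0.79, SE 0.10, adjusted p = 5.83e-06). CENPF, of the kinetochore, was at 40.2, 39.3 and 39.8 RPKM in the untreated libraries and 23.6, 28.0 and 25.5 RPKM in the 12 h libraries (log2 change -0.61, SE 0.07, adjusted p = 1.85e-06). In both, each treated library was below each untreated one. CCNB2 fell from 70.0 ± 2.83 to 48.7 ± 2.53 RPKM and TOP2A from 107 ± 2.12 to 75.3 ± 4.45 RPKM. CDC20, an activator of the anaphase-promoting complex, was the 1 that rose (from 167 ± 7.28 to 202 ± 11.3 RPKM, log2 change 0.27). Shares of cells by phase were not measured.

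Growth factor and early response genes were mixed. AREG, an EGF receptor ligand that keratinocytes make in quantity, was at 619, 599 and 639.8 RPKM in the untreated libraries and 349, 309 and 331 RPKM in the 12 h libraries (log2 change -0.91, SE 0.05, adjusted p = 2.73e-10). HBEGF fell from 10.1 ± 1.04 to 5.52 ± 0.859 RPKM and NRG1, a ligand of ERBB3 and ERBB4, rose from 17.1 ± 0.988 to 28.6 ± 0.82 RPKM, so that 3 of 9 EGF receptor and ligand genes rose and 4 fell under either scaling. Of 33 immediate early and MAPK feedback genes, 4 rose and 13 fell, but 9 and 9 with median-of-ratios scaling. The shares over all genes tested moved likewise, from 16.0% higher and 32.8% lower to 23.7% and 22.9%. EGR1 was at 185, 156 and 150.2 RPKM in the untreated libraries and 76.2, 91.3 and 82.1 RPKM in the 12 h libraries (log2 change -0.97, SE 0.09, adjusted p = 2.52e-07). DUSP10, a phosphatase of stress kinases, fell from 25.8 ± 1.98 to 13.8 ± 0.901 RPKM and FOS from 396 ± 20.3 to 292 ± 20.0 RPKM, while JUN rose from 17.4 ± 0.696 to 22.2 ± 0.41 RPKM. Of 17 TGF-beta and BMP genes, 5 rose and 1 fell (9 and 0 with median-of-ratios scaling). FST (follistatin), which traps activins, was at 36.9, 42.8 and 40.5 RPKM in the untreated libraries and 99.5, 107 and 109 RPKM in the 12 h libraries (log2 change 1.37, SE 0.10, adjusted p = 1.19e-08), and ID2 went from 0.933 ± 0.419 to 3.81 ± 0.386 RPKM.

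Of 16 keratinocyte differentiation genes, 10 rose and 1 fell under either scaling. SPRR2D, a cornified envelope precursor, was at 11.2, 8.28 and 7.37 RPKM in the untreated libraries and 38.2, 48.8 and 54.4 RPKM in the 12 h libraries (log2 change 2.28, SE 0.13, adjusted p = 1.15e-09). SPRR2A, a near-identical copy with which it can share reads, went from 1.35 ± 0.229 to 6.86 ± 1.11 RPKM. TGM1, the transglutaminase that crosslinks the envelope, went from 6.93 ± 0.483 to 13.4 ± 1.02 RPKM and IVL (involucrin) from 8.70 ± 0.936 to 12.2 ± 0.547 RPKM, whereas KRT10, an early differentiation keratin, was the 1 that fell (from 11.8 ± 0.932 to 9.02 ± 0.656 RPKM). Of 15 basal genes, 7 rose and 3 fell (9 and 1 with median-of-ratios scaling). LAMA3 and LAMB3, chains of the basement membrane's laminin-332, went from 209 ± 6.30 to 343 ± 15.8 RPKM and from 109 ± 7.63 to 177 ± 8.62 RPKM, and the hemidesmosome genes COL17A1 and ITGA6 from 382 ± 12.6 to 586 ± 8.95 RPKM and from 246 ± 7.15 to 365 ± 15.6 RPKM. KRT15, a basal keratin, was at 602, 493 and 373 RPKM in the untreated libraries and 217, 312 and 246 RPKM in the 12 h libraries (log2 change -0.91, SE 0.17, adjusted p = 0.000295). Its untreated libraries were spread widely, but all lay above the treated ones. KRT14 was at 6194 ± 301 and 6165 ± 519 RPKM (adjusted p = 0.909). KRT5 passed the test at 7650.5 ± 183 and 6911 ± 386 RPKM (log2 change -0.15, adjusted p = 0.00318), but not with median-of-ratios scaling (-0.04).

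Genes of translation and respiration were slightly lower together. Of 85 cytosolic ribosomal protein genes, 0 rose and 78 fell (1 and 63 with median-of-ratios scaling), with a median of -0.28 (-0.18). Of 79 nuclear genes of oxidative phosphorylation, 1 rose and 72 fell (1 and 57), with a median of -0.31 (-0.20). Both medians lay below that of all genes, -0.095 (-0.0013). RPL13A was at 1598, 1505 and 1563 RPKM in the untreated libraries and 1049, 1095 and 1089.6 RPKM in the 12 h libraries (log2 change -0.53, SE 0.03, adjusted p = 2.28e-09) and UQCRC2, of respiratory complex III, at 185, 176 and 179 RPKM in the untreated libraries and 127, 124 and 131 RPKM in the 12 h libraries (log2 change -0.50, SE 0.04, adjusted p = 9.84e-08). ATP5IF1, the inhibitor of ATP synthase, fell from 214 ± 15.9 to 140.0 ± 8.29 RPKM, and NDUFA9, of complex I, rose from 72.5 ± 2.16 to 87.9 ± 3.62 RPKM. The direction of mitochondrial ribosomal protein genes depended on the scaling, with 8 of 76 higher and 27 lower, against 20 and 11. Likewise, 27 of 386 zinc finger genes named ZNF were higher and 72 lower, against 46 and 47. All genes tested shifted in the same way, from 16.0% higher and 32.8% lower to 23.7% and 22.9%.

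Transcripts of the mitochondrial genome behaved unevenly. MT-RNR1, the small mitochondrial ribosomal RNA, was at 296, 332 and 292 RPKM in the untreated libraries and 1166, 1195 and 1134 RPKM in the 12 h libraries (log2 change 1.92, SE 0.13, adjusted p = 8.59e-09). MT-RNR2, the large one, was at 1619, 1677 and 1725 RPKM in the untreated libraries and 2463, 2421 and 2240.2 RPKM in the 12 h libraries (log2 change 0.50, SE 0.13, adjusted p = 0.00434). The 13 protein-coding mitochondrial genes had a median of -0.22, with 1 higher and 1 lower, and MT-CO1 was at 3718 ± 137 and 3613 ± 194 RPKM (adjusted p = 0.878). MT-RNR1 also moved in the wild type, at 346 ± 39.2 untreated and 1107 ± 159 RPKM at 12 h. The part of these ribosomal RNAs in the other results was not tested.

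By 48 h the knockout line had moved on in gene-specific ways, and 5538 genes differed between 48 and 12 h (41.7%). CXCL10 and CXCL11 fell from their 12 h levels to 2.44 ± 0.4 RPKM (log2 change -5.22, SE 0.11, adjusted p = 6.56e-14) and 16.3 ± 1.03 RPKM (log2 change -4.23, SE 0.11, adjusted p = 5.3e-13). ISG20, an exonuclease, had risen from 2.55 ± 0.663 to 53.3 ± 6.80 RPKM at 12 h and fell to 10.5 ± 0.878 RPKM, and MMP13 fell to 2.54 ± 0.234 RPKM. ANGPTL4, an inhibitor of lipoprotein lipase, went from 15.0 ± 1.05 to 60.1 ± 0.918 RPKM and then to 14.2 ± 1.59 RPKM. Other interferon-stimulated genes were higher at 48 h than at 12 h: IFI27 reached 2505 ± 271 RPKM (log2 change 1.25, SE 0.18, adjusted p = 5.66e-05), BST2 421 ± 24.8 RPKM (log2 change 1.49, SE 0.11, adjusted p = 4.33e-08) and HLA-B 279 ± 5.57 RPKM (log2 change 1.11, SE 0.07, adjusted p = 6.03e-09). MX1 was at 482 ± 4.22 RPKM and IFIT1 at 218 ± 4.50 RPKM, both below 12 h and far above untreated libraries.
Among the genes that had fallen, PADI3 rose again to 17.1 ± 0.736 RPKM (log2 change 1.85, SE 0.08, adjusted p = 9.57e-11), NUPR1 to 18.9 ± 0.248 RPKM, ARRDC4 to 28.3 ± 2.82 RPKM and ASNS to 64.9 ± 0.165 RPKM. CHAC1 reached 6.56 ± 0.0265 RPKM and NNMT, a methyltransferase of nicotinamide that was at 8.92, 7.70 and 10.8 RPKM untreated and 1.87, 2.52 and 3.10 RPKM at 12 h, 10.7 ± 2.06 RPKM. The 12 h libraries enter both comparisons, so an unusual 12 h value would move both.

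**Figure D4:**
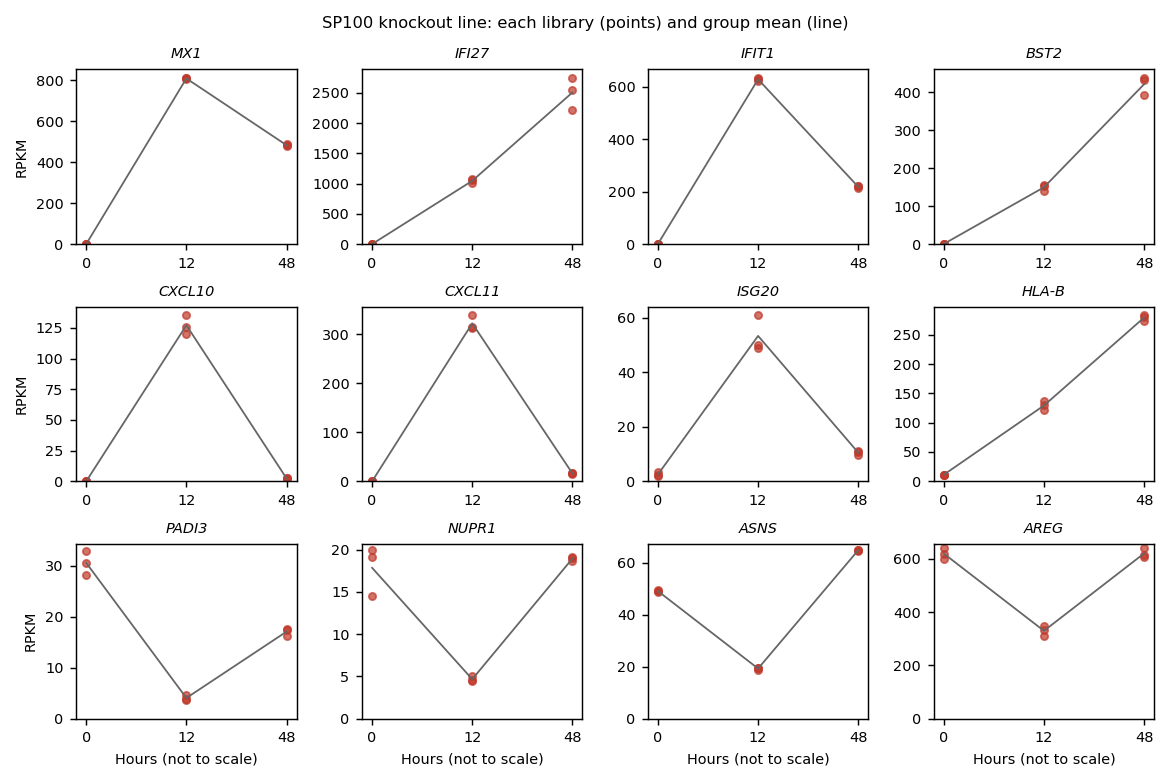
RPKM of 12 genes in the knockout line (vertical axes from 0) at 0, 12 and 48 h of interferon (horizontal axis, categories not to scale), with a point per library and lines through group means. CXCL10, CXCL11 and ISG20 peak at 12 h, IFI27, BST2 and HLA-B are highest at 48 h, and the genes of the bottom row are lowest at 12 h.

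Compared with the wild-type line, the 12 h change differed in 10 of 13280 genes (0.0753%; 764 at an unadjusted p under 0.05), by limma's test of the difference. The gap lay mostly before treatment for the interferon-stimulated genes among them. IFIT1 was at 0.953 ± 0.231 RPKM in the untreated knockout and 4.32 ± 0.723 in the untreated wild type, but at 628 ± 6.53 and 627 ± 19.9 RPKM at 12 h, a difference in change of 1.45 (SE 0.11, adjusted p = 1.34e-05). IFI44 was at 0.81 ± 0.35 against 3.84 ± 0.711 untreated and 213 ± 14.9 against 207 ± 2.30 RPKM at 12 h, a difference of 1.47 (SE 0.15, adjusted p = 0.000305). MX1 had the reverse arrangement, near 0 in both lines untreated and 808 ± 3.97 against 580.1 ± 7.18 RPKM at 12 h, a difference of 0.58 (SE 0.06, adjusted p = 0.000311), which lost its call with a pseudocount of 0.1 (0.83). The count of 10 became 6 when untreated knockout replicate 1 or 2, or 12 h knockout replicate 3, was left out. Of the gene lists, 6 of 29 antiviral effectors and 2 of 6 ISG15 conjugation genes were called; INHBA was the 1 call in the TGF-beta list, and IGF2 is in no list. No class I, chemokine, sensor or ISGF3 gene was called. For the 12 largest falls, 0 were called in this test, with differences in change of -0.52 to 0.05 and SE of 0.11 to 0.29; a missed threshold does not show that the lines changed alike.

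**Figure D5:**
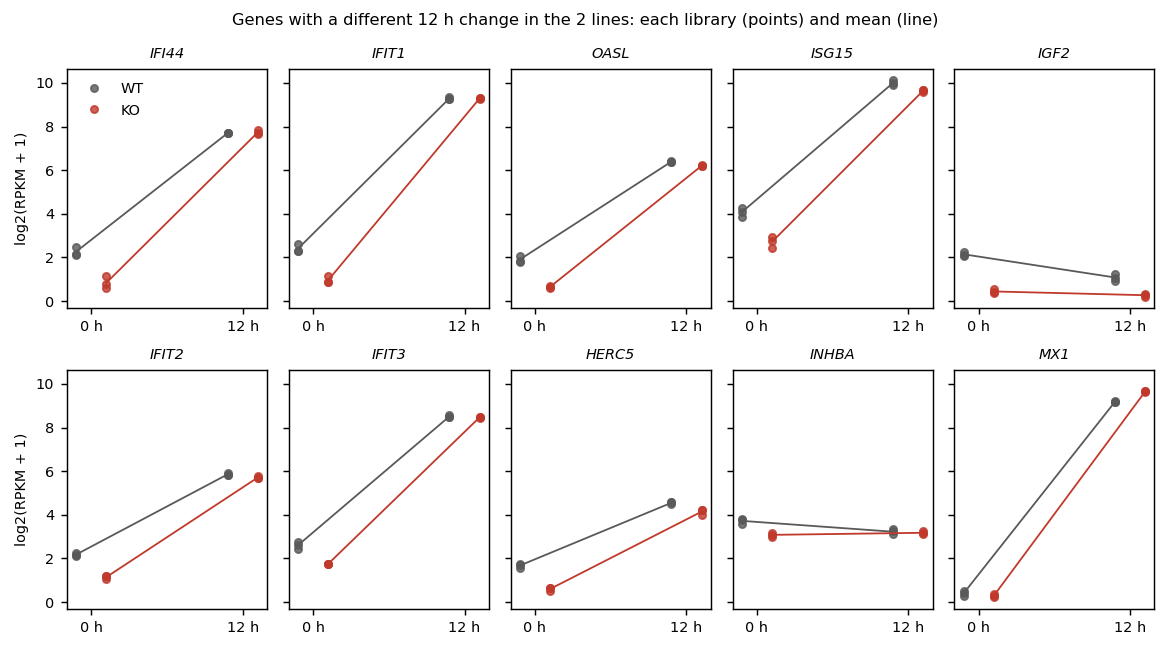
Level in each library (vertical axes, log2(RPKM + 1)) of the 10 genes whose 12 h change differed between the lines, untreated and at 12 h, in the wild type (WT, grey) and the knockout (KO, red), with lines through group means. For IFI44, IFIT1, IFIT2, IFIT3 and OASL the lines start apart and nearly meet at 12 h, and for MX1 they start together and part.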

How the data were processed

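Poly-A RNA was sequenced from 18 libraries, and the authors deposited 1 table of RPKM values for 16472 gene IDs, rounded to 2 decimals. The submitters' processing notes name cutadapt, STAR 2.6.1, RSEM 1.3.0, limma 3.50.3 and hg19, without their roles; the annotation, and whether reads shared by near-identical genes were split, are not given in the sources used here. Symbols were matched for 14576 IDs. Each sample's column was found by the library name in its description.

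RPKM values are not counts, so log2(RPKM + 1) was fitted in limma 3.58.1 under R 4.3.3, with trended variances and 1 mean per group over all 18 libraries, for 13280 genes with at least 1 RPKM in at least 3 libraries (12401 with a symbol). Adjustment (Benjamini-Hochberg) was over every gene in a comparison, and the threshold was 0.05. The comparisons were 12 h against untreated knockout, 48 h against 12 h knockout, and the difference between the lines in the 12 h change. Total reads are unknown; relative depth was recovered from the low values of 1133 genes, with 87.6% of pairs of libraries inside 3% of the fit. Precision rests on 3 libraries per group.

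Named genes are the 12 largest rises and falls with a symbol, groups that do not overlap and a mean of at least 5 RPKM in the higher group; the 8 largest such rises in no list; examples from the lists; SP100; and the 5 largest in each direction in the other comparisons. The genes and lists were chosen with earlier results of these data known. RefSeq start windows (GRCh38.p14) were matched by symbol. Alternatives were a pseudocount of 0.1, no filter, a mean of at least 5 RPKM, median-of-ratios scaling, only the libraries of the comparison, variances without a trend, a replicate block, and each library left out. The fit was tested on simulated data. Some genes of the lists are counted but not reported here by name. Coordinates are given only for the 4 printed promoter windows, since the table was made on hg19.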

Additional observations from a re-analysis of the deposited data

Results flagged for a closer look

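For 10 genes the 12 h change differed between the knockout and the wild-type line, by limma's test of that difference. It was larger in the knockout by 1.47 for IFI44, 1.45 for IFIT1, 1.06 for OASL, 1.01 for ISG15, 0.89 for IFIT2, 0.81 for IFIT3, 0.67 for HERC5 and 0.58 for MX1 on the log2(RPKM + 1) scale. For IGF2, an insulin-like growth factor, the difference was 0.89: it was at 0.34, 0.29 and 0.45 RPKM in the untreated knockout and 0.14, 0.21 and 0.27 RPKM at 12 h, and at 3.43 ± 0.232 untreated and 1.13 ± 0.237 RPKM at 12 h in the wild type. For INHBA, a subunit of activin, it was 0.59: the gene was at 7.45, 6.96 and 7.99 RPKM untreated and 8.47, 7.71 and 7.95 RPKM at 12 h in the knockout, and at 12.2 ± 1.07 untreated and 8.36 ± 0.781 RPKM at 12 h in the wild type. Neither gene's change in the knockout passed the test (adjusted p = 0.206 for IGF2 and 0.299 for INHBA).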

How the results depend on the processing

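The 6485 genes called at 12 h ranged from 5255 to 6631 over the alternatives run, and the 5538 called between 48 and 12 h from 4548 to 5597. The 154 falls of at least 2-fold became 476 with a pseudocount of 0.1 and 85 with a mean of at least 5 RPKM required, the latter testing fewer genes. The 233 rises of at least 2-fold became 313 and 166 under the same settings, so falls outnumbered rises with a pseudocount of 0.1. The count of genes with a different change in the 2 lines, 10, became 14 with a mean of at least 5 RPKM required, 6 when only the libraries of the comparison were fitted, and 6 to 9 when 1 library was left out; it was 6 without untreated knockout replicate 1 or 2 or without 12 h knockout replicate 3. Of those 10, MX1 lost its call with a pseudocount of 0.1 (0.83), and ISG15, IGF2, HERC5 and INHBA lost theirs under several settings; the cause was not tested. No pairing by replicate number was seen: same-numbered untreated and 12 h knockout libraries had correlations of 0.0039 to 0.0101 in their deviations from the group means. Such values cannot show whether same-numbered libraries were handled together. With the replicate number as a block, 6348 genes were called at 12 h, 7 in the test of a difference between lines and 5363 between 48 and 12 h. Of 177 genes tested by name in the 12 h comparison, 167 kept their side of the threshold under every alternative, and 0 of 2286 gene and setting pairs reversed. Some of these genes were named for their large changes and others with earlier results known, so this does not describe all 6485 genes called. The exceptions fell below the threshold in 13 pairs (IFNAR1, IRF5, KRT5, PSMB6, UBN2, VIM) and passed it in 5 (CGAS, DAXX, INHBA, PSMB5). Total reads are unknown, so no limit of detection can be given for genes listed at 0.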

Other observations

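Among genes outside the main lists, 3 keratin genes that lie side by side rose together. They were named after their values were seen. KRT6B, a keratin of wounded and hyperproliferative epidermis, was at 66.3, 72.6 and 70.3 RPKM in the untreated libraries and 285, 331 and 359 RPKM in the 12 h libraries (log2 change 2.20, SE 0.08, adjusted p = 8.27e-13). KRT6C, a close copy with which it can share reads, went from 2.55 ± 0.295 to 12.0 ± 1.53 RPKM, and KRT75 from 0.38 ± 0.173 to 6.92 ± 0.734 RPKM. TAGLN, an actin-binding protein, was also named after its values were seen, at 9.62, 7.82 and 9.41 RPKM in the untreated libraries and 30.8, 31.3 and 39.1 RPKM in the 12 h libraries (log2 change 1.80, SE 0.10, adjusted p = 5.64e-10), and it was back at 8.03 ± 0.483 RPKM at 48 h.

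Some of the genes that rose at least 2-fold lay next to each other. In RefSeq order, with 12262 tested genes placed, 12 runs of 3 or more adjacent tested genes all rose at least 2-fold, holding 41 genes in all, and 0 such runs fell. The longest runs held 5 genes each: TAP2, PSMB8, PSMB8-AS1, TAP1 and PSMB9 on chromosome 6, and SP110, SP140L, SP100, RN7SL834P and HMGB1P3 on chromosome 2. RN7SL834P and HMGB1P3 are pseudogenes, and the authors' counting could share reads between overlapping genes. The other runs held the IFIT, IFITM, OAS and APOL genes, PARP9 with DTX3L and PARP14, CMPK2 with RSAD2 and ID2, HERC5 with HERC6 and PPM1K, CXCL10 and CXCL11 with ART3, CXCL8 with CXCL1 and CXCL3, and the 3 keratins.

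Long non-coding RNAs were 24.0% of the 154 genes that fell at least 2-fold (37 genes), 3.43% of the 233 that rose as far (8 genes) and 6.12% of all genes tested. Of 813 tested, 51 were called higher (6.27%, against 16.0% of all genes tested) and 258 lower (31.7%, close to the 32.8% of all genes tested), or 66 and 211 with median-of-ratios scaling. Their median untreated level was 1.96 RPKM against 12.2 RPKM over all genes tested, and the part of this lower level in the counts was not tested.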
